A study of Homo sapiens with 2 samples.

Results

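Peaks in penultimate exons of coding transcripts were examined in a map of N6-methyladenosine (m6A) from HCCLM3, an established human hepatocellular carcinoma cell line that metastasises readily. The deposited list held 39801 peaks, and 5325 of them carried an exon label naming a protein-coding RefSeq transcript. The members were chosen by that label alone, as the peaks whose exon number was 1 below the number of exons of the named transcript. There were 876 such peaks (16.5% of the coding-transcript exon peaks, 95% Wilson interval 15.5 to 17.5, and 2.20% of all peaks), in 838 exons of 833 genes. For comparison, 3956 peaks lay further upstream (called internal here, first exons included) and 493 in the last exon.

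The data came from 1 m6A-RIP library, in which RNA was captured with an antibody, and 1 input library of RNA before capture. Both were made from wild-type HCCLM3 cells with no treatment named in the labels, and neither had a replicate, so every value describes these libraries and no difference between peaks or exon classes has a replicate check. The study is about YTHDF2, which binds m6A in the cytoplasm, together with CRTC2, which assists CREB in transcription, and the comparison addresses which parts of which transcripts were captured above input. No gene-level expression was used here, so the labelled cell type could not be checked on marker levels. Positions are on hg38.

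m6A is placed on nascent mRNA by a nuclear methyltransferase complex at short sequence contexts around an adenosine. It is known to be concentrated in long internal exons and around stop codons, while the protein complexes deposited at exon junctions keep it low in short exons close to a splice site. The penultimate exon lies just before the last exon junction of a transcript. In most mRNAs the stop codon is in the last exon, but in some genes the penultimate exon is the long one and holds most of the coding sequence. Annotation tools that write such labels usually let promoter and UTR labels go before exon labels, an order that the sources used here do not state.

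Peaks were more numerous in the penultimate exon than at any other of the 10 positions nearest the end of long transcripts. Among the 3794 peaks in transcripts of 10 exons or more, 423 lay in the penultimate exon (11.1%, interval 10.2 to 12.2), against 292 in the exon before it (7.70%, 6.89 to 8.59). The count was thus 1.45 times that of its nearest neighbour (1.25 to 1.68). Each of the 7 positions further upstream held 201 to 234 peaks, with a median of 216, and the penultimate count was 1.96 times that median. The last exon held 73, a number that such an order of labels would lower. Exon length was not available, and the counts are per exon and not per base.

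**Figure D1:**
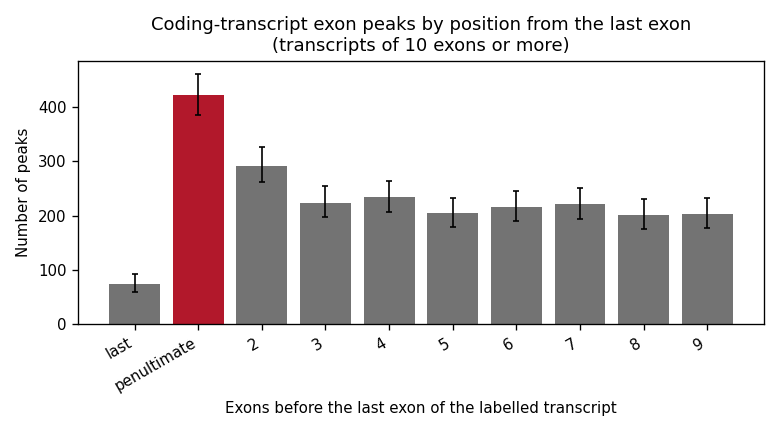
Number of coding-transcript exon peaks (vertical axis) by the number of exons between the labelled exon and the last exon of the named transcript (horizontal axis), for transcripts of 10 exons or more. Bars are counts and lines are 95% Wilson intervals. The penultimate exon, in red, held 423 peaks, against 292 in the exon before it and 201 to 234 at each position further upstream.

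Of the 876 peaks, 867 were on the main chromosomes and 9 on other contigs. The named transcripts had a median of 9 exons (quartiles 5 to 15, maximum 107), against 18 for internal and 5 for last exon peaks. Summits could be placed within the RefSeq gene for 848 peaks and lay a median of 6682 bp from the gene's 3' end (quartiles 4081 to 11667). The median for internal exon peaks was 27519 bp. In 79 of the 848 (9.32%) the summit lay in the upstream 50% of the gene, and whether the exon is internal to a longer isoform there was not tested. The deposited label names only 1 transcript per peak. The deposited nearest-start gene was the exon's own gene for 401 members (45.8%), and genes are named here by the exon label.

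Median fold over input was slightly higher in penultimate exons than in the other exon classes, but not under every threshold. The ratio of the median over that of last exons was 1.09 for all peaks, 1.01 for q-values under 0.05 and 0.97 for those under 1e-5, so that its direction turned. The ratio over internal exons was 1.06, 1.04 and 1.07 in the same order, but at equal input level the intervals of penultimate and internal exons overlapped in all 5 classes of input. The fold, the p-value and the q-value are the authors' values, given per peak by their peak caller. The median fold was 4.03 in penultimate exons (quartiles 3.05 to 5.31), 3.79 in internal exons and 3.71 in last exons, against 3.33 over all peaks. The 95% intervals of these medians were 3.91 to 4.16, 3.74 to 3.88, and 3.49 to 3.82 in the same order. The range in penultimate exons was 1.28 to 14.0, whereas internal exons reached 27.1. A fold of at least 4 was reached by 444 members (50.7%, 47.4 to 54.0), by 45% of internal and by 42.0% of last exon peaks, with 33.9% of all peaks as the background.

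The numbers of fragments behind these folds were unequal. Penultimate exon summits had a median of 21.5 RIP fragments (quartiles 10 to 42), with a local input level of 2, against 28 fragments and an input level of 3 for internal exon peaks. The caller adds a pseudocount to RIP and input, so that folds are pulled down most at low input. At an input level above 1.5 and up to 3.5 fragments, the median fold was 4.42 in 208 penultimate exon peaks (4.18 to 4.83) and 4.75 in 643 internal exon peaks (4.61 to 4.90). From 3.5 to 7.5 it was 4.31 (4.08 to 4.66) in penultimate and 4.31 (4.18 to 4.45) in internal exons. Above 7.5 it was 3.5 (3.05 to 3.83) in penultimate and 3.32 (3.24 to 3.43) in internal exons. Only 15.5% of penultimate exon peaks had an input level above 7.5, against 26.6% of internal ones, so the classes differed in how input was distributed. The last exon stood lowest in the class from 3.5 to 7.5, with a median of 3.69 (3.48 to 3.88), an interval that does not reach that of the penultimate exons. In every other class of input the intervals of last and penultimate exons overlap. The last exon median was 4.06 (3.73 to 4.74) from 1.5 to 3.5 and 3.02 (2.56 to 3.55) above 7.5.

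**Figure D2:**
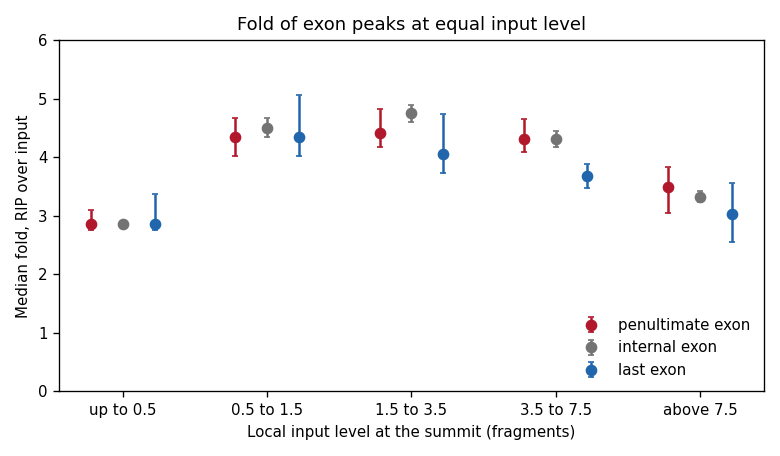
Median fold of RIP over input (vertical axis) in 5 classes of local input level in fragments (horizontal axis), for penultimate, internal and last exon peaks. Points are medians and lines are exact binomial 95% intervals of the median. Penultimate and internal exons lie close together in every class, for example 4.31 and 4.31 from 3.5 to 7.5.

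Most members passed a q-value threshold of 0.05. That threshold was set here, and the deposited list also holds peaks with larger q-values. A q-value under 0.05 was reached by 646 (73.7%, 70.7 to 76.6), by 72.0% of internal and by 67.5% of last exon peaks, against 48.8% of all peaks. A q-value under 1e-5 was reached by 364 members (41.6%, 38.3 to 44.8) and by 46.5% of internal exon peaks (45 to 48.1), with 25.8% of all peaks as the background. Another 138 members had a q-value from 0.05 to below 1, and 92 (10.5%) had a q-value of 1. At most 3 RIP fragments supported 69 members (7.88%), compared with 21.4% of all peaks, and the fragments per member ranged from 2 to 206.

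The strongest member lay in USP42, a deubiquitinase gene, in exon 15 of 16 on chromosome 7 from 6154704 to 6155460. After scaling to the input library its RIP level was 79.6 fragments, against an input level of 4.74, which gave a fold of 14.0 (95% Poisson interval 11.7 to 16.7). A second peak in the same exon, with its summit 783 bp away, had a fold of 4.11 (2.62 to 6.18). The intervals of the pair do not overlap.

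The next members by fold came from genes of varied function. PPP1R9A, encoding the actin-binding protein neurabin-1, had a fold of 12.4 (8.86 to 16.9) in exon 19 of 20. SEPTIN10, a septin GTPase gene, reached 11.9 (8.40 to 16.4) in exon 9 of 10. SMG8, a regulator of the SMG1 kinase of nonsense-mediated decay, had a RIP level of 42.3 against an input level of 2.66 in exon 3 of 4 (chromosome 17, 59213115 to 59213553), a fold of 11.8 (9.21 to 15). For BICD1, a dynein adaptor gene, the fold was 11.7 (8.74 to 15.3), and for RND3 it was 11.2 (8.67 to 14.3). FZD6, the homeobox gene ADNP and CSTF1, a gene for a subunit of the cleavage stimulation factor of mRNA 3' ends, followed with folds of 10.1 to 10.8. The intervals of all these members, USP42 included, overlap, so their order is not resolved by the fragments behind them.

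Ranking by p-value favoured peaks with many fragments, and only SMG8 and USP42 were in both groups of 10. SDE2, a gene for a factor in DNA replication and splicing, had the highest −log10 p, 69.8, in exon 6 of 7 on chromosome 1 from 225987725 to 225988210. Its RIP level was 117 fragments against an input level of 12.7, and its fold was 8.62 (7.43 to 9.96). USP35, another deubiquitinase gene, had a fold of 9.99 (8.32 to 11.9) and KDM5A, a histone H3 lysine demethylase gene, 8.70 (7.30 to 10.3). TUT7, which encodes a terminal uridylyltransferase that tags RNAs for decay, had 8.93 (7.14 to 11) in exon 26 of 27. RBBP6, a ubiquitin ligase gene linked to mRNA 3' processing, had 7.67 (6.30 to 9.25), and FBXO30, an F-box gene, 7.31 (5.98 to 8.86). BCL9L (5.33) and ACBD3 (5.80) completed the group with input levels of 20 and 14.0, the highest among these peaks.

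**Figure D3:**
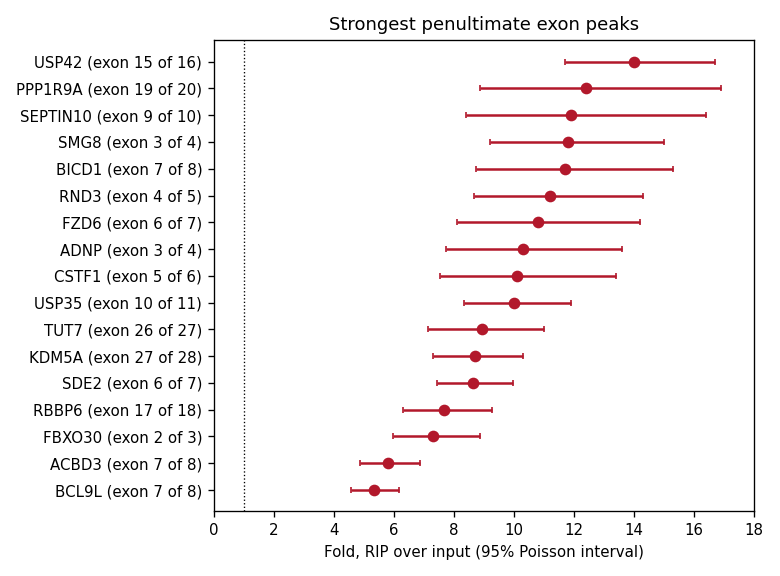
Fold of RIP over input (horizontal axis) of 17 peaks from the top 10 by fold and the top 10 by p-value, with gene and exon on the vertical axis. Points are folds, lines are their 95% Poisson intervals, and the dotted line marks a fold of 1. USP42 stands at 14.0, and its interval overlaps those of the folds from 10.1 to 12.4.

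Wide peaks were a small and well supported minority. A width of 1000 bp or more was found in 47 members (5.37%, 4.06 to 7.06), against 294 internal (7.43%) and 60 last exon peaks (12.2%). The median width of all members was 332 bp, the narrowest of the 3 classes, against 367.5 bp in internal and 509 bp in last exons. No peak in the list was narrower than 296 bp, and the lower quartile of members, 304 bp, was near that floor. Of the 47 wide members, 46 had a q-value under 0.05, compared with 72.4% of the narrower ones, and their median fold was 4.57 (3.95 to 5.09), against 3.98 (3.88 to 4.13). Those intervals overlap, and the median input level was unlike, at 7 in wide and 2 in narrower members. More RIP fragments lay at the summits of the wide members, with a median of 59 against 20.

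The widest member, 4203 bp, lay in exon 6 of 7 of AHDC1, a gene for a DNA-binding protein with AT-hook motifs, on chromosome 1. Its fold was 6.14 (4.86 to 7.65). C6orf132 followed with 3151 bp in exon 4 of 5 and a fold of 4.33 (3.37 to 5.49). C15orf39 had 2377 bp in exon 2 of 3 with a higher fold, 7.61 (6.10 to 9.38). ANKRD50, an endosomal recycling gene, had 1988 bp and a fold of 7.77 (5.96 to 9.97). The desmosomal plakin gene DSP had 2198 bp in exon 23 of 24 with a fold of only 2.31 (2 to 2.67), over a RIP level of 119 fragments. Its relative DST had 2725 bp, also in exon 23 of 24, and a fold of 3.56 (2.70 to 4.62). These genes were named for their widths after the values were seen. Wide members made up 7 of 61 (11.5%) in transcripts of 2 or 3 exons and 3 of 118 (2.54%) in those of 21 or more, while the median fold was 4.15 and 4.14 in these groups.

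Several peaks in 1 penultimate exon were uncommon. On the main chromosomes, 30 of 830 exons (3.61%, 2.54 to 5.11) held 2 or more, against 189 of 3621 internal exons (5.22%, 4.54 to 5.99) and 57 of 400 last exons (14.2%, 11.2 to 18). The 24 exons with 2 peaks had their summits 530 to 1914 bp apart. LRRC8A and LRRC8B, which encode subunits of the volume-regulated anion channel, each held 2. Their folds in transcript order were 2.04 (1.66 to 2.47) and 2.36 (1.98 to 2.80) in LRRC8A, and 4.03 (2.26 to 6.81) and 8.20 (5.43 to 12) in LRRC8B. There were 6 exons with 3 or more, and 4 of them belong to genes for zinc finger or homeobox proteins.

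ZFHX3, a transcription factor with zinc fingers and homeodomains, held 4 peaks in exon 9 of 10 on chromosome 16, spread over 4624 bp from the first summit to the last. In transcript order their RIP levels were 36.6, 30.8, 53.2 and 21.8 fragments, against input levels of 13, 9, 16.0 and 5.36. The folds were 2.68 (2.05 to 3.46), 3.18 (2.37 to 4.18), 3.19 (2.55 to 3.94) and 3.59 (2.53 to 4.95). All 4 intervals overlap, so no part of the exon stood apart at this depth. Its paralog ZFHX4 held 3 peaks in exon 10 of 11, with folds of 5.47 (3.62 to 7.97), 3.46 (2.08 to 5.49) and 5.37 (3.13 to 8.77).

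PRDM2, a histone methyltransferase and zinc finger gene, was uneven. The first of its 3 peaks in exon 8 of 9 had a fold of 7.80 (6.01 to 9.97) and the last a fold of 3.59 (2.51 to 5), and these intervals do not overlap. ZHX3, a zinc finger and homeobox repressor gene, had folds of 4.13 (3.10 to 5.41), 3.65 (2.69 to 4.86) and 6 (4.37 to 8.06). STOX2 had 4.10 (2.72 to 5.98), 4.02 (2.38 to 6.48) and 3.02 (1.97 to 4.47). In AKAP12, a scaffold gene for protein kinase A, only the first of 3 peaks had a q-value under 0.05, with a fold of 3.04 (2.14 to 4.19). The other AKAP12 peaks had folds of 2.25 (1.55 to 3.16) and 1.58 (1.08 to 2.25).

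**Figure D4:**
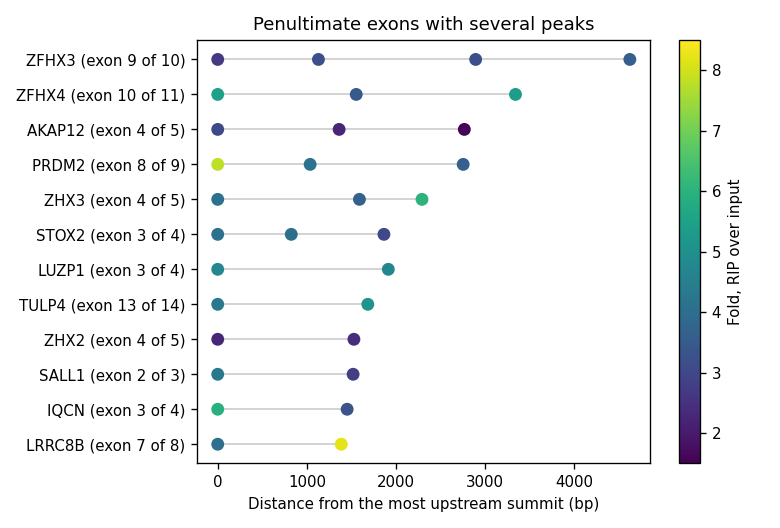
Summit positions in 12 penultimate exons with several peaks, as the distance in bp from the most upstream summit along the transcript (horizontal axis), with colour giving the fold of RIP over input. All 6 exons with 3 or more peaks are shown, followed by the exons with 2 whose summits were farthest apart among those of known strand. ZFHX3 holds 4 summits over 4624 bp at folds of 2.68 to 3.59, while the first PRDM2 summit stands at 7.80.

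All 3 YTHDF genes carried a wide member. These paralogs encode the cytoplasmic readers that bind m6A through a YTH domain. YTHDF2 had a peak of 1877 bp in exon 5 of 6 on chromosome 1 from 28742595 to 28744471. Its RIP level was 89.8 fragments against an input level of 22.0, and its fold was 3.95 (3.33 to 4.65). YTHDF1 had a peak of 1585 bp in exon 4 of 5 (chromosome 20, 63202130 to 63203714), with a RIP level of 90.5 against an input level of 23.1 and a fold of 3.8 (3.20 to 4.47). YTHDF3 had a peak of 1736 bp in exon 5 of 6 (chromosome 8, 63186254 to 63187989), with a RIP level of 105 against an input level of 32.3 and a fold of 3.17 (2.71 to 3.70). The intervals of all 3 overlap, with YTHDF3 at the lowest fold and the highest input level.

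In each YTHDF gene the penultimate exon peak was the one with most RIP fragments. The 3' UTR peaks of YTHDF2, YTHDF1 and YTHDF3 had folds of 5.14 (3.75 to 6.88), 2.82 (2.03 to 3.83) and 3.73 (2.76 to 4.95) on 42, 38 and 45 fragments, against 140, 141 and 163 in the penultimate exon. No other gene of the 16 m6A readers and erasers held a member, and the nuclear reader YTHDC1 had its coding peak in an internal exon instead. The 3 members were 60% of the 5 coding exon peaks of the readers and erasers, beside 16.5% of all coding-transcript exon peaks. None of the 11 genes of m6A writers held a member, although 2 of them held internal exon peaks. The writers had only 11 coding exon peaks, so at a share of 16.5% few members could be found there.

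The counts in the gene lists are read against the whole data: 16.5% of coding-transcript exon peaks were members, 73.7% of members and 48.8% of all peaks had a q-value under 0.05, and 41.6% of members and 25.8% of all peaks had one under 1e-5. Members were 11.1% of the exon peaks in transcripts of 10 exons or more, and the lists were not matched on exon number. CREB coactivators and regulators, 19 genes, held 3 members among their 14 exon peaks (21.4%), all with a q-value under 1e-5. Their median fold was 5.58, beside 4.03 over all members. CRTC1, a coactivator related to CRTC2, had a member in exon 14 of 15 (chromosome 19, 18775693 to 18776109). Its RIP level was 16.7 against an input level of 1, and its fold was 8.84 (5.95 to 12.7). That was the highest of the 6 CRTC1 peaks, and its 3' UTR peaks had folds of 3.54 (2.13 to 5.62) and 3.69 (2.07 to 6.24). The transcription factor gene CREB1 had a member of fold 5.58 (3.56 to 8.39) in exon 8 of 9 and its relative ATF1 one of 4.31 (3.01 to 6) in exon 6 of 7. In the 3' UTR, CREB1 had peaks of fold 9.16 (6.21 to 13.1), 6.15 (4.69 to 7.94) and 2.64 (1.28 to 5.33). These folds lay above and below that of its member, and their intervals overlap its own. The single 3' UTR peak of ATF1 had a fold of 12.4 (9.85 to 15.5), an interval above that of its member. CRTC2 held no member, and its coding peaks were in internal exons.

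Wnt genes held 8 members in 7 of 38 genes, which was 25.8% of their 31 exon peaks, beside 16.5% overall. Their median fold was 4.85, and 7 of the 8 passed a q-value under 0.05, beside 73.7% of all members. The receptor gene FZD6 stood highest, with a RIP level of 31.4 against an input level of 2 in exon 6 of 7 (chromosome 8, 103329777 to 103330240) and a fold of 10.8 (8.09 to 14.2). LRP6, a coreceptor gene, had 6.29 (4.66 to 8.33) in exon 22 of 23, while its paralog LRP5 had 2.03 (1.52 to 2.66), also in exon 22 of 23. Those intervals do not overlap, and the input level was lower for LRP6 (3.85) than for LRP5 (15). ZNRF3 and RNF43, related ubiquitin ligase genes that remove Wnt receptors from the cell surface, each had a member in exon 8 of 9, at 6.10 (4.74 to 7.74) and 4.37 (3.51 to 5.38). A second ZNRF3 peak in that exon had a fold of 1.89 (1.26 to 2.74) and did not pass the q-value threshold.

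Of 29 Hippo genes, 4 held a member (10.5% of their 38 exon peaks, beside 16.5% overall). A q-value under 0.05 was reached by 3 of the 4, close to the 73.7% of all members. The transcription factor gene TEAD1 had a fold of 7.24 (4.67 to 10.8), the scaffold gene AMOTL2 5.06 (3.5 to 7.12), and YAP1, the coactivator that the pathway restrains, 3.95 (3.04 to 5.05). The MOB1B peak rested on 3 fragments. Among 44 EGFR, MAPK and PI3K genes, NF1, a RAS GTPase activator, had a fold of 6.11 (4.14 to 8.73) in exon 56 of 57, and SOS1, a RAS exchange factor, 4.95 (3.54 to 6.74) in exon 21 of 22. No other gene of that list held a member. These 2 were 12.5% of the list's 16 exon peaks, beside 16.5% of all coding-transcript exon peaks. Both had a q-value under 0.05, beside 73.7% of all members.

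Chromatin regulators held 9 members in 9 of 64 genes, against 162 internal exon peaks in 51 genes, so members were 5.06% of their exon peaks, beside 16.5% overall. All 9 had a q-value under 0.05, beside 73.7% of all members, and their median fold was 4.61. After KDM5A, the highest folds were in ARID5B, a DNA-binding partner of a demethylase, at 6.03 (4.82 to 7.45), and the bromodomain gene BRD3 at 5.60 (4.34 to 7.11). The remaining 6 were CHD2, KMT2C, SETD2, KDM5B, ASXL1 and ASXL2, with folds of 3.75 to 5.36. The paralogs KDM5A and KDM5B had intervals that do not overlap, with folds of 8.70 (7.30 to 10.3) and 4.18 (2.61 to 6.42) in the next to last of 28 and of 27 exons, while those of ASXL1 and ASXL2 overlap, at 4.16 (3.13 to 5.43) and 3.75 (2.62 to 5.23).

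Of 39 DNA repair genes, 5 held a member, which was 7.58% of the list's 66 exon peaks, beside 16.5% overall. A q-value under 0.05 was reached by 3 of the 5, beside 73.7% of all members. They were the helicase genes WRN (5.89, 3.97 to 8.48) and BRIP1 (5.31, 3.19 to 8.44) and the mismatch repair gene MSH3 (4.58, 3.10 to 6.55). MRE11 and CHEK2 rested on 4 and 3 fragments. Of 35 ubiquitin and SUMO ligase genes, 6 held 7 members, and their share of the list's exon peaks, 17.9%, was close to the overall 16.5%. A q-value under 0.05 was reached by 6 of the 7, beside 73.7% of all members. ZNRF3 led, followed by CBLB, a regulator of receptor turnover, at 5.45 (3.37 to 8.45). Of 40 splicing and RNA processing genes, SRSF4 (4.33, 3.23 to 5.70) and PNN (4.13, 3.40 to 4.98) held members. These 2 were 6.06% of the list's 33 exon peaks, beside 16.5% of all coding-transcript exon peaks. Both had a q-value under 0.05, beside 73.7% of all members.

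The liver lists held few coding exon peaks or few members. Hepatocyte markers, 35 genes, had 7 exon peaks, of which 1 was a member (14.3%, beside 16.5% overall). It lay in FGA, the fibrinogen alpha chain gene, and was of 949 bp in exon 5 of 6, with a RIP level of 76.3 against an input level of 24.0 and a fold of 3.09 (2.57 to 3.69). The 35 liver cancer driver genes had 37 internal exon peaks and 1 member (2.63% of their exon peaks), in the activin receptor gene ACVR2A, whose fold of 3.39 (1.82 to 5.98) rested on 9 fragments and missed the q-value threshold. No member lay in the 78 cytosolic ribosomal protein genes, the 18 immune markers or the 20 endothelial and stromal markers. The ribosomal protein and immune lists held 0 coding exon peaks of any class, and the endothelial and stromal list held 1. Their lack of members therefore says nothing about penultimate exons. A gene without a member may also be one whose RNA was scarce, which the peak list does not show.

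**Figure D5:**
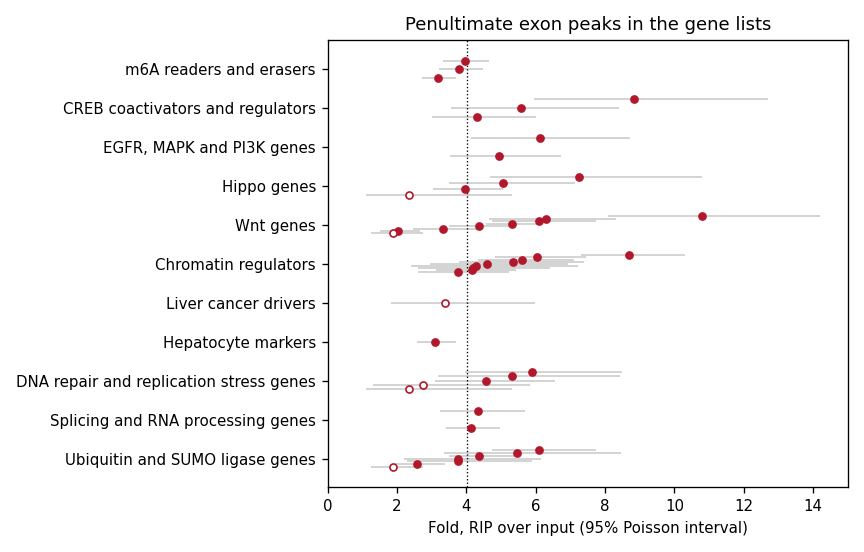
Fold of RIP over input (horizontal axis) of the penultimate exon peaks in 11 gene lists (vertical axis). Filled points had a caller q-value under 0.05 and open points did not, grey lines are exact 95% Poisson intervals, and the dotted line marks the median of all 876 members, 4.03. FZD6 in the Wnt list stands at 10.8, and the 3 YTHDF peaks lie at 3.17 to 3.95.

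Genes with a penultimate exon peak often had a 3' UTR peak as well. Of 824 such genes whose peak could be placed in the gene, 549 (66.6%, 63.3 to 69.8) held a 3' UTR peak in their body, against 1073 of 2226 genes with an internal exon peak (48.2%, 46.1 to 50.3) and 240 of 397 with a last exon peak (60.5%, 55.6 to 65.1). The peak list has no strand, so a 3' UTR peak of an overlapping gene would be counted too. A gene may stand in more than 1 class, and the classes were not matched on expression.

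Within these 549 genes the penultimate exon peak was usually the weaker. Taking the peak of smallest p-value of each kind, the median fold was 4.29 in the penultimate exon and 5.08 in the 3' UTR, and the median of the ratio per gene was 0.850 (0.792 to 0.888). The number of peaks to choose from was not matched between the 2 kinds. A gene could hold several 3' UTR peaks, whereas only 3.61% of penultimate exons held 2 or more. The summits were a median of 3417 bp apart, and the median input level was 2.16 in the penultimate exon and 4 in the 3' UTR. The exon peak was higher in 203 genes (37.0%). With input held fixed, the 95% Poisson intervals overlapped in 433 genes, the exon stood above the 3' UTR in 30 and below it in 86. For internal exon peaks the median ratio was 0.905 (0.863 to 0.946).

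The 3 highest ratios were in BICD1, FRMD3 and TUT7. BICD1 had a fold of 11.7 (8.74 to 15.3) in the penultimate exon and 3.15 (2.07 to 4.63) in the 3' UTR. In FRMD3 the folds were 7.22 (5.46 to 9.38) in the penultimate exon and 2.16 (1.62 to 2.84) in the 3' UTR. TUT7 had 8.93 (7.14 to 11) in the penultimate exon and 2.75 (1.40 to 5.13) in the 3' UTR, where the peak rested on 7 fragments. The 3 lowest ratios were in FAM120C, OBI1 and C6orf89. The penultimate exon peaks of FAM120C and OBI1 rested on 3 fragments each, with folds of 2.26 (1.08 to 5.11) and 2.16 (1.03 to 4.89), against 15.1 (11.6 to 19.5) and 13.1 (8.78 to 19) in the 3' UTR of the same genes. C6orf89 had 23 fragments and a fold of 3.15 (2.07 to 4.63) in the penultimate exon and 15.6 (12.2 to 19.8) in the 3' UTR.

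Other coding peaks of the same genes were fewer. Of the 833 genes, 274 (32.9%, 29.8 to 36.2) also held an internal exon peak and 40 (4.8%, 3.55 to 6.47) a last exon peak, and 529 (63.5%, 60.2 to 66.7) held neither. In the 274 genes with both kinds the median ratio of the penultimate over the internal fold was 0.978 (0.924 to 1.04), and the penultimate exon was higher in 130 (47.4%). The interval of that ratio includes 1. The number of internal exon peaks per gene was not matched to that of penultimate exon peaks.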

How the data were processed

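One m6A-RIP and 1 input library of wild-type HCCLM3 cells were made, with RNA extracted by a Magna RIP kit, per the labels' protocols. HISAT2 and MACS2 on hg38 are named in the submitters' processing notes; the sources used here give no version, caller setting or duplicate removal. From the authors came 1 deposited peak table with a linear fold (a ratio of RIP to input, per the file headers), a −log10 p-value, a −log10 q-value and a score per peak. The headers of the deposited −log10 p-value and q-value columns were damaged; 99.99% of the deposited scores equal 10 times the first column rounded down.

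Exon genes were taken from the deposited label and matched to RefSeq genes of GRCh38.p14 (876 of 876 members), since the deposited nearest-start gene differed for 475 (54.2%). RIP fragments, as whole numbers, and local input levels, which need not be whole, were recovered from fold and p-value, with a pseudocount of 1 and a RIP scaling factor of 0.642, within 0.001 on the −log10 p scale for 100% of peaks; 860 members had a single solution. The recovery was tested on simulated data. Total depth is unknown. Fold intervals are exact 95% Poisson intervals with input held fixed, so the counting error of the input is left out. Shares have 95% Wilson intervals, and medians have exact binomial intervals. All of these reflect counting error alone, and without molecular identifiers a fragment need not be an independent molecule.

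With 1 library of each kind, conditions could not be tested. Members and the 15 gene lists were chosen with earlier results of these data known. Genes named were the top 10 by fold with a q-value under 0.05, the top 10 by −log10 p, up to 3 peaks of highest fold per list (others of a list by name, and wide peaks, LRRC8 peaks and the extreme exon and 3' UTR pairs after their values were seen), exons with 3 or more peaks, and YTHDF2, CRTC2 and the other m6A genes with a member. One member of the top 10 by fold is not reported here. Exon length and sequence motifs were not analysed here. Python 3.11.15, pandas 2.3.3 and scipy 1.17.1 were used.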

Additional observations from a re-analysis of the deposited data

How the results depend on the processing

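No paired analysis was possible because each kind of library was made once. Of 31 alternative values, 23 stayed within the interval of the reported value, or within 1.5 times for counts of peaks. The exceptions follow. The number of members was 364 at a q-value under 1e-5. The share with a q-value under 0.05 was 80.0% among peaks with more than 3 fragments. The median fold of members was 4.18 with more than 3 fragments, 4.59 for q below 0.05, 5.42 for q below 1e-5 and 6.42 with no pseudocount, as these thresholds remove weak peaks and the pseudocount lowers the fold by construction. The ratio of the median fold in penultimate over last exons was 1.09 as reported, 1.01 for q below 0.05 and 0.97 for q below 1e-5, so its direction turned; the cause was not tested. The ratio over internal exons was 1.06 as reported and 1.04 to 1.08 under the alternatives. The count of peaks in penultimate exons over that in the exon before, 1.45 as reported, was 1.31 to 1.49 under 6 alternatives chosen after seeing the data (thresholds, transcript size, 1 peak per exon, summits in the downstream 50% of the gene). Planned checks on exon length and on GGAC around the summit were not run, since no genome or transcript models were used here. Depth limits single peaks: the 69 members with at most 3 fragments have wide intervals.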

Other observations

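Symbol families were chosen after the members were seen, and some stood at unlike shares of the exon classes while others did not. Beside their counts, 73.7% of all members had a q-value under 0.05. Genes named ZNF plus a number, mostly C2H2 zinc finger genes, held 32 penultimate exon peaks (3.65%, 2.60 to 5.11), against 69 internal (1.74%, 1.38 to 2.20) and 156 last exon peaks (31.6%, 27.7 to 35.9). The ZSCAN and ZKSCAN genes pair zinc fingers with a SCAN domain. They held 7 penultimate (0.799%), 2 internal (0.0506%) and 6 last exon peaks (1.22%), and all 7 penultimate ones had a q-value under 0.05. ZFHX and ZHX genes held 12 penultimate (1.37%), 5 internal (0.126%) and 1 last exon peak (0.203%). The 12 came from only 4 genes, and 10 of them had a q-value under 0.05. Solute carriers held 15 penultimate exon peaks (1.71%, 1.04 to 2.81) and 30 internal ones (0.758%, 0.532 to 1.08), and only 9 of the 15 had a q-value under 0.05, with a median fold of 3.26. Genes for DNAJ co-chaperones held 7 penultimate (0.799%), 10 internal (0.253%) and 0 last exon peaks. All 7 penultimate ones had a q-value under 0.05, with a median fold of 4.24. The USP deubiquitinase genes had much the same share in each class, with 7 penultimate (0.799%), 33 internal (0.834%) and 3 last exon peaks (0.609%). No test of these differences was made.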
